A study of Mus musculus with 8 samples.

Results

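Cytosolic ribosomal proteins build the ribosome of the cytoplasm. Proteins of the large subunit surround the site where peptide bonds are made, proteins of the small subunit surround the site where the messenger RNA is read, and the stalk proteins of the large subunit recruit the elongation factors. Their transcripts are short and abundant in dividing cells, and in vertebrates most of them start with a run of pyrimidines, the terminal oligopyrimidine tract, through which growth signals control their translation together.

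The genes described here were chosen by name. A probe set, the group of array probes that reads a transcript, belonged to them when its only gene symbol was Rpl or Rps followed by a number and at most a final a or x, or was Rplp0, Rplp1, Rplp2 or Rpsa. This gave 94 of 45037 probe sets on the array, for 42 of 18193 genes with a probe set of their own, on 15 chromosomes. They were 20 genes of the large subunit with 40 probe sets, 20 of the small subunit with 52, and the stalk genes Rplp0 and Rplp2 with 2. Another 110 probe sets carried a name of this kind beside other symbols and were not counted as members. Rplp1 had no probe set with a single symbol.

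The cells came from limb buds of mouse embryos at E10.5, all heterozygous for Shhgfpcre, an allele that puts a green fluorescent protein and Cre cassette at Shh. GFP-positive cells were the zone of polarizing activity (ZPA), the posterior mesenchyme that makes the Sonic hedgehog signal. GFP-negative cells were the rest of the limb (non-ZPA), with the same allele and the other cell types of the bud. Each group had 4 samples, but ZPA replicates 1 and 2 held the same values apart from rounding and were counted as 1 array, so that 3 ZPA arrays are set against 4 non-ZPA arrays throughout. Errors are SD with n = 3 and n = 4 unless stated. Whether samples came from separate litters or sorts is not stated, so p-values reflect only how far these samples spread. In a bulk sample, more cells of a type and more RNA per cell cannot be told apart.

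The arrays differed in their upper range of intensity, spike-in signal, Actb ratio and cell type markers. Each deposited column had been scaled to a trimmed mean of 500, yet the 99th percentile of intensity was 20432, 15197 and 19213 on ZPA arrays 1+2, 3 and 4, against 12175 to 13767 on the non-ZPA arrays. Bacterial spike-in probe sets had a mean log2 intensity of 13.83, 10.99 and 13.04 on the 3 ZPA arrays, against 10.14 to 10.68 on the non-ZPA arrays. Actb signal at the 3′ end exceeded that at the 5′ end, a measure of RNA quality, 21.6-fold on ZPA array 4 and 2.04-fold to 5.37-fold elsewhere. The same ratio for Gapdh was 1.21, 2.56 and 9.02 on ZPA arrays 1+2, 3 and 4, against 3.67 to 5.77 on the non-ZPA arrays. Shh, the gene of the sort, averaged 9855 ± 3179 in ZPA cells, against 619 ± 425 in non-ZPA cells. Markers were tested by limma with 1 probe set per gene, at an adjusted p under 0.05, where 1.92% of all genes fell and 0.396% rose. Muscle precursor markers were lower in ZPA cells for 3 of 5 genes, with summed intensities of 164 to 366 against 946 to 3068. Surface ectoderm markers were lower for 2 of 8 (summed 830 to 1800 against 3167 to 6626) and erythroid markers for 2 of 7 (18631 to 58732 against 37445 to 54365). None of 6 limb mesenchyme, 4 endothelial and 5 leukocyte markers passed the limma test, with summed intensities of 20357 to 26202, 395 to 1204 and 641 to 12876 in ZPA cells, against 14967 to 24867, 510 to 1860 and 830 to 1599 in non-ZPA cells. The leukocyte sum was 1236, 641 and 12876 on ZPA arrays 1+2, 3 and 4. By this sum array 4 stood apart, with Laptm5 at 4995, Csf1r at 3685, Coro1a at 3475 and Fcer1g at 584. Ptprc did not follow, at 136 on ZPA array 4, 165 on ZPA array 1+2 and 158 on non-ZPA array 2. No marker was listed at 0 on any array. The part of these differences in the results below was not tested.

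Sequences near the annotated starts of the genes that passed the test are shown first, because the pyrimidine tract is the sequence feature this family is known for. Promoter sequences of assembly GRCm38.p6 from RefSeq were found for 37 of the 42 genes. A run of 7 or more C or T on the sense strand lay within 20 bases before to 50 bases after the annotated start for 32 of these 37 (86.5%), against 41.6% of all 27025 genes in the table, coding and noncoding. The word CTTTC stood in the same window for 18 of the 37 genes (48.6%), against 10.4% of all genes; it is itself made of C and T and can lie inside such a run. The word CCGGAAG, a core that ETS family factors bind, stood on either strand of the 300 bases around the start for 18 of the 37 (48.6%), against 9.93% of all genes. These matches describe the letters only. The windows below hold 30 bases of the sense strand, and capitals mark the longest run of C and T near the start.
Rpl37a (chr1:72711274-72711303, + strand): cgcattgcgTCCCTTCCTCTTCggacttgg
Rpl10a (chr17:28328572-28328601, + strand): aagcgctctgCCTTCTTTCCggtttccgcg
Rpl22 (chr4:152324413-152324442, + strand): aatatcagcgctgCTTCTggaatgttccag
Rps10 (chr17:27635227-27635256, - strand): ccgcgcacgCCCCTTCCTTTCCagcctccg
Rps15 (chr10:80292446-80292475, + strand): gcagcccgtaCTTCCTTTTCCgagtaaccg
Rps18 (chr17:33955648-33955677, - strand): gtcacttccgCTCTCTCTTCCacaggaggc
Rps24 (chr14:24490698-24490727, + strand): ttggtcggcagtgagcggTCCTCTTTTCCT
The run was 13 bases long in Rpl37a and Rps10, 12 in Rps24, 11 in Rps15 and Rps18 and 10 in Rpl10a, and only 5 in Rpl22. The run spanned the annotated start only in Rps10 and Rps18, where it began 3 and 2 bases before it. In Rpl22 it ended 6 bases before the start. Counted from 1 at the start, it began at position 18 in Rpl10a, 24 in Rpl37a, 26 in Rps15 and 39 in Rps24. The windows shown for Rpl10a, Rpl37a, Rps15 and Rps24 lie after the annotated start and do not hold it. The run of Rps24 reached the end of the searched window.

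Ribosomal protein transcripts gave some of the brightest signals in both sorts. Of the 94 probe sets, 42 had a mean rank above the 99th percentile of their arrays and 63 above the 95th, while 13 lay below the 60th. They made up 23 of the 100 probe sets with the highest mean intensity. Rank here is of signal, since probe sets bind their targets with different strength. On the deposited scale the median of the 94 intensities was 18750, 18404 and 26552 on ZPA arrays 1+2, 3 and 4, against 9036, 9511, 9009 and 10133 on non-ZPA arrays 1 to 4. All 3 ZPA medians lay above all 4 non-ZPA medians.

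**Figure D1:**
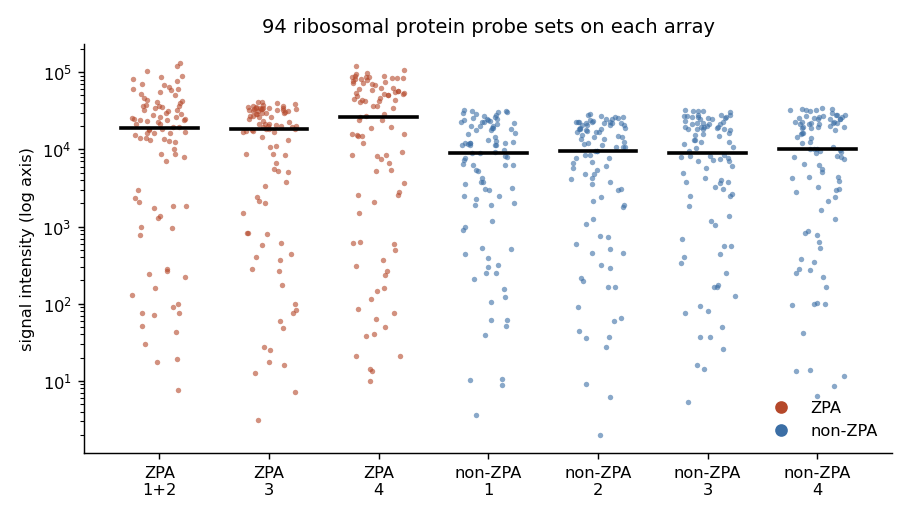
Signal intensity (log axis) of the 94 ribosomal protein probe sets on each of the 7 arrays, ZPA left and non-ZPA right, with a bar at the median. The median runs from 18404 to 26552 on the ZPA arrays and from 9009 to 10133 on the non-ZPA arrays.

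The family took a larger share of all signal in ZPA cells on the deposited scale. The share was 5.10%, 4.35% and 7.03% of the summed intensity on ZPA arrays 1+2, 3 and 4, against 3.01%, 3.01%, 3.19% and 3.37% on non-ZPA arrays 1 to 4, with means of 5.50 ± 1.38% and 3.14 ± 0.171%. The groups did not overlap. After quantile normalization, which gives every array the same distribution of intensities, the shares were 3.94%, 4.97% and 5.08% in ZPA cells, against 3.77% to 4.01% in non-ZPA cells, and ZPA array 1+2 lay among the non-ZPA arrays. The median percentile rank, which no scaling changes, was 98.9, 99.3 and 99.3 on the ZPA arrays and 98.2, 98.4, 98.2 and 98.3 on the non-ZPA arrays. It stood 0.890 percentile points higher in ZPA cells, and the groups did not overlap. Over the probe sets with no letter mark in their identifier alone, the difference was 0.156 points and the groups overlapped, at 76.4, 76.5 and 73.1 on the ZPA arrays and 73.5 to 76.6 on the non-ZPA arrays.

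**Figure D2:**
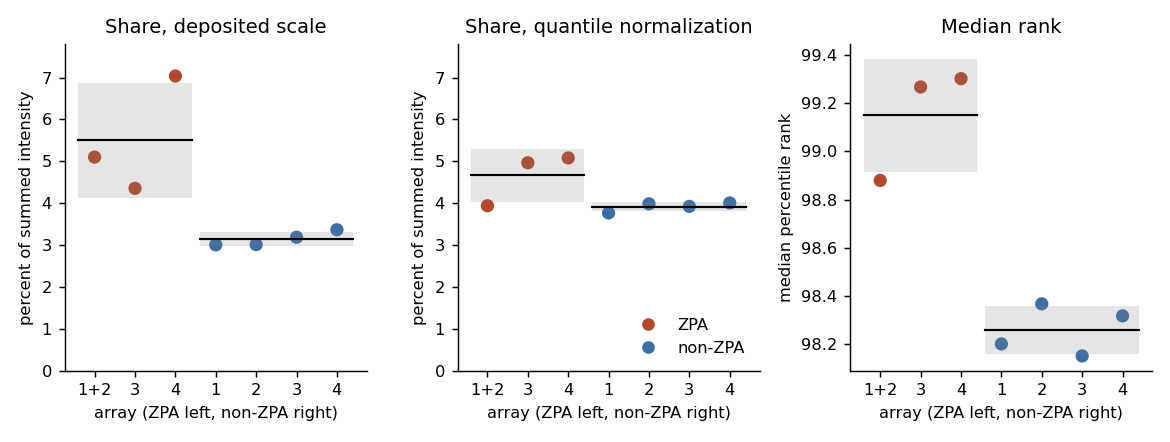
Share of summed signal held by the 94 probe sets on the deposited scale (left) and after quantile normalization (middle), in percent, and their median percentile rank (right), for each array, with group mean (line) and SD (band). The ZPA arrays lie above the non-ZPA arrays in the left and right panels, and ZPA array 1+2, at 3.94%, overlaps them in the middle panel.

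Of the 94 probe sets, 88 passed the filter on low values and were tested. The other 6 were single probe sets of Rpl27a, Rps16, Rps4x and Rps6 and a pair of Rps18, so that Rps16 was the only gene with none tested. Most tested probe sets read higher in ZPA cells, 69 higher and 19 lower, where 51.1% of all 29525 tested probe sets read higher. The median log2 difference was 0.93 (1.91-fold), against 0.02 over all tested probe sets. By array, the median stood 0.85 above the non-ZPA mean on ZPA array 1+2, 0.54 on array 3 and 1.37 on array 4. ZPA array 4, the array with the high Actb ratio and leukocyte sum, had the highest of the 7 values for 50 of the 88. ZPA array 1+2 had it for 21 and ZPA array 3 for 5. How often each array was highest over all probe sets is not given, so these counts cannot be read as particular to this family. Without ZPA array 4 the median was 0.69. The 110 probe sets that share their names with other genes had nearly the same median, 0.96 over 106 tested.

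The shift was smaller on another scale. After quantile normalization the median over the 88 probe sets was 0.14 (1.10-fold), against -0.04 over all, with 57 higher and 31 lower. The share of all probe sets that read higher on this scale is not given. By array it was 0.03 on ZPA array 1+2, 0.37 on array 3 and 0.28 on array 4. ZPA array 3, whose spike-in signal and upper percentile lay closest to the non-ZPA arrays, read above all 4 non-ZPA arrays for 66 probe sets on the deposited scale and for 53 after quantile normalization. ZPA array 1+2 did so for 64 and 32, and ZPA array 4 for 65 and 43. Shares of all tested probe sets that did so are not given, so these counts cannot be read as particular to this family. With 23 of the 100 brightest probe sets, the family takes part in setting the common distribution, as do the other bright probe sets. What this adds to the smaller shift was not tested.

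Other bright probe sets shifted too. In the brightest class, the upper part of the top percentile of mean rank, 31 ribosomal protein probe sets had a median log2 difference of 1.04 and 114 others one of 0.84. In the rest of that percentile the medians were 0.82 for 11 members and 0.51 for 153 others. Between the 98th and 99th they were 1.45 for 13 members and 0.27 for 376 others, and between the 95th and 98th they were 1.49 for 8 members and -0.03 for 1183 others. The gap to other probe sets of like rank was thus widest for members of the 95th to 99th percentile, among them probe sets of Rps10, Rps24, Rps15 and Rpl37a. After quantile normalization the medians in those classes were 0.98 and 1.28 for members and -0.09 and -0.11 for others, while the brightest class stood at 0.08 for members and -0.16 for others. The 12 tested members at or below the 80th percentile went the other way, with a median of -0.57 and only 2 above 0.

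**Figure D3:**
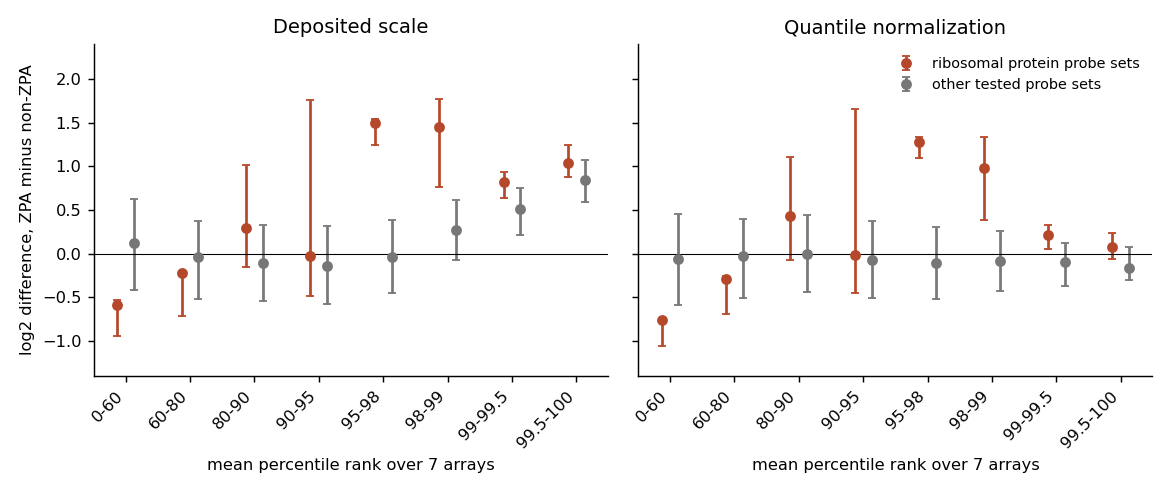
Median log2 difference, ZPA minus non-ZPA, of ribosomal protein probe sets and of other tested probe sets by class of mean percentile rank, on the deposited scale (left) and after quantile normalization (right). Bars span the middle 50% of values. On the left the other probe sets stand highest in the brightest class (0.84), where the members are at 1.04, and in both panels the members between the 95th and 99th percentile stand farthest above the others.

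On the deposited scale 12 of 88 probe sets rose and 0 fell by limma at an adjusted p under 0.05, Benjamini-Hochberg over all tested probe sets, where 0.349% of all tested probe sets rose and 1.28% fell. They belonged to 7 genes, 3 of the large subunit (Rpl10a, Rpl22, Rpl37a) and 4 of the small (Rps10, Rps15, Rps18, Rps24). At an unadjusted p under 0.05 stood 60 higher and 3 lower, where 7.69% and 9.74% of all did. Values of 53 probe sets did not overlap between the groups with ZPA above and 5 with ZPA below, where 7.79% and 8.73% of all tested probe sets did so. With quantile normalization 8 rose and 0 fell, all 8 among the 12 (0.335% and 1.15% of all), and 20 and 9 did not overlap (7.21% and 9.39% of all). With the scan day as a block 14 rose and 1 fell (0.647% and 2.11% of all). The count of 12 depended on single arrays, as did the count over all probe sets. It was 43 (41 higher, 2 lower) without ZPA array 1+2, 26 without ZPA array 3 and 10 without ZPA array 4, where 8.76%, 2.09% and 1.51% of all tested probe sets were called in either direction. It was 1, 0, 0 and 2 without non-ZPA replicates 1, 2, 3 and 4, where 0.715%, 0.423%, 0.44% and 0.562% of all were called. At an unadjusted p under 0.05 there were 51 higher and 2 lower without non-ZPA replicate 2 (5.3% and 7.07% of all), and 53 and 3 without non-ZPA replicate 3 (5.83% and 7.87% of all). With each gene represented by its brightest probe set, 5 of 41 tested genes rose and 0 fell, where 0.396% and 1.92% of all 13884 genes did. These were Rpl10a, Rpl22, Rpl37a, Rps10 and Rps24.

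Among large subunit genes, Rpl37a, a zinc-binding protein, differed most. Its brightest probe set read 35927, 16974 and 46353 on ZPA arrays 1+2, 3 and 4, against 7957, 6142, 7738 and 7452 on non-ZPA arrays 1 to 4. The lowest ZPA value lay far above the highest non-ZPA value. The log2 difference was 2.06 ± 0.35 SE (4.17-fold, limma adjusted p = 0.0103), and 1.56 with quantile normalization (adjusted p = 0.00957). The call was lost without non-ZPA replicate 2 (adjusted p = 0.0525) or 3 (0.0513), while in the fit of 1 probe set per gene it held without each array in turn, at adjusted p up to 0.0460. A second probe set also rose, with 16676, 5207 and 7506 in ZPA cells, against 1776 to 3109 in non-ZPA cells (log2 difference 1.83 ± 0.39, adjusted p = 0.0344). The remaining probe set, far dimmer, overlapped between the groups at 598 to 961 in ZPA cells, against 252 to 817 in non-ZPA cells.

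Rpl10a, the protein of the flexible stalk by which spent tRNA leaves the ribosome, read 55963, 29120 and 56300 in ZPA cells, against 12906, 16719, 18231 and 19313 in non-ZPA cells. It rose by this scale (log2 difference 1.44 ± 0.32, limma adjusted p = 0.0382), and with quantile normalization stood at 0.64 (adjusted p = 0.158). Rpl22, an RNA-binding protein that mouse T cell development needs, had probe sets of opposite sign. Its brightest read 86053, 34042 and 71951 in ZPA cells, against 19607 to 22215 in non-ZPA cells (1.47 ± 0.33, adjusted p = 0.0431; 0.47, adjusted p = 0.241, with quantile normalization). Another read 61176, 20767 and 8262 in ZPA cells, against 11334, 9579, 4250 and 3292 in non-ZPA cells, and in both groups the arrays of the second of 2 scan days, replicates 3 and 4, were lower than those of the first. With the scan day as a block that probe set passed (2.10, adjusted p = 0.00791). The last read 1831, 3746 and 2600 in ZPA cells, against 3552 to 7876 in non-ZPA cells (-1.21 ± 0.36, adjusted p = 0.106), and with the scan day as a block it passed as lower (-1.32, adjusted p = 0.0433).

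**Figure D4:**
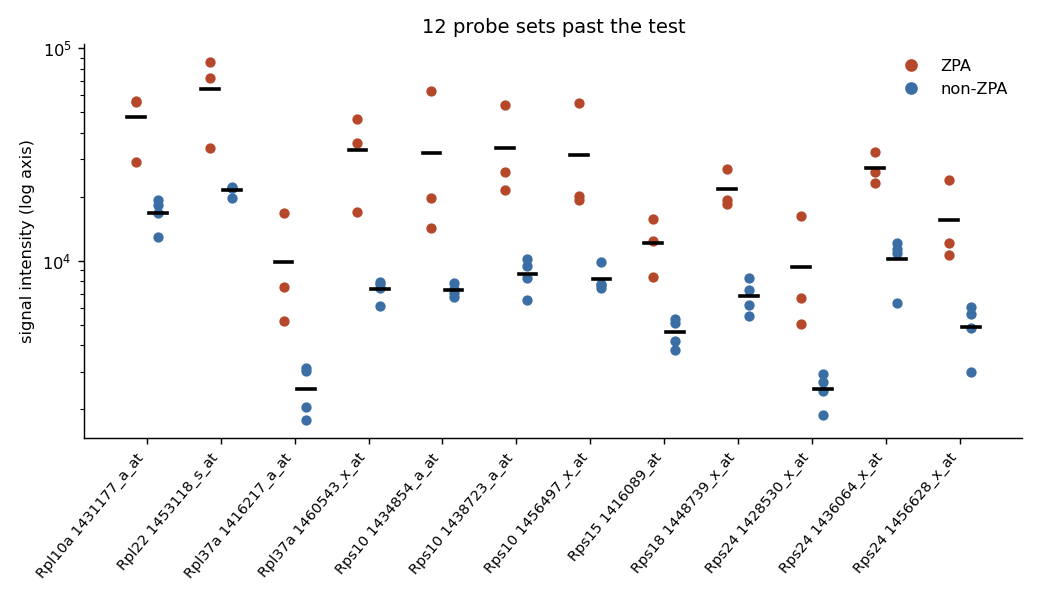
Signal intensity (log axis) of the 12 probe sets past the test, by array, ZPA left of non-ZPA for each, with bars at the group means. Within each probe set no ZPA value overlaps a non-ZPA value, and the brightest Rpl37a probe set averages 33085 in ZPA cells, against 7322 in non-ZPA cells.

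In the small subunit, Rps10, a protein near the channel where messenger RNA enters, was read by 6 probe sets. The brightest read 26214, 21469 and 54080 on the ZPA arrays, against 6499, 9442, 8295 and 10208 on the non-ZPA arrays. It rose with a log2 difference of 1.88 ± 0.35 (3.67-fold, limma adjusted p = 0.0168), and of 1.38 with quantile normalization (adjusted p = 0.0270). Another 2 probe sets of Rps10 rose, by 1.84 (adjusted p = 0.0449) and 1.77 (adjusted p = 0.0302), and 1 at 1.51 did not pass (adjusted p = 0.0558). With quantile normalization the probe set at 1.84 lost its call (adjusted p = 0.0567), and with the scan day as a block the probe set at 1.51 gained one (adjusted p = 0.0457). The largest difference of any member, 2.12 ± 0.61, came from a probe set with 1369, 8626 and 15805 in ZPA cells, against 1001 to 1638 in non-ZPA cells. It did not pass (adjusted p = 0.0980), and ZPA array 1+2 lay among the non-ZPA arrays. The dimmest, at 62.8 to 266 in ZPA cells, against 163 to 251 in non-ZPA cells, had a difference of -0.56.

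Rps24, altered in some human patients with Diamond-Blackfan anaemia, had 3 of 6 probe sets past the test, with log2 differences of 1.45, 1.63 and 1.73 (adjusted p = 0.0343, 0.0395 and 0.0395). The brightest read 32469, 23154 and 26021 in ZPA cells, against 6321, 11377, 10852 and 12094 in non-ZPA cells. The groups did not overlap, and with quantile normalization it stood at 0.98 (adjusted p = 0.0955) while the other 2 passed at 1.39 and 1.62. Another bright probe set, at 1.48, did not pass (adjusted p = 0.125), and the 2 dim probe sets of the gene were at -0.68 and -0.23.

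Rps18 and Rps15 lie in the head of the small subunit. A probe set of Rps18 read 19381, 18393 and 27084 in ZPA cells, against 6194, 5466, 7292 and 8243 in non-ZPA cells, and rose by 1.66 ± 0.29 on the log2 scale (adjusted p = 0.0125; 1.34, adjusted p = 0.0209, with quantile normalization). The brightest Rps18 probe set was at 1.01 (adjusted p = 0.162) and at 0.11 with quantile normalization, and passed on neither scale. Rps15 read 12326, 8402 and 15661 in ZPA cells, against 5337, 4202, 3811 and 5078 in non-ZPA cells (1.36 ± 0.30, adjusted p = 0.0418; 1.17, adjusted p = 0.0473, with quantile normalization). Its other probe set was at 1.56 and did not pass (adjusted p = 0.0779), with 12743, 18416 and 52993 against 5790 to 9308.

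The brightest members showed the dependence on scale most plainly. Rps29 read 133367, 41534 and 106848 on ZPA arrays 1+2, 3 and 4, against 32234, 28370, 32711 and 32308 on the non-ZPA arrays. ZPA array 3 was only slightly above the non-ZPA range and the other ZPA arrays far above it. The log2 difference was 1.42 ± 0.37 (adjusted p = 0.0715), and 0.20 with quantile normalization. Rps2, Rps28, Rps20 and Rpl13a, also among the 8 brightest probe sets, had differences of 1.15, 1.35, 1.15 and 1.04 on the deposited scale, and of -0.05, 0.26, 0.14 and -0.11 with quantile normalization. None of these 4 passed on either scale.

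The stalk genes did not pass. Rplp0, the anchor of the stalk, read 24119, 30080 and 44703 in ZPA cells, against 16390 to 22717 in non-ZPA cells (0.73 ± 0.30, adjusted p = 0.225). Rplp2 read 36745, 36183 and 81907 in ZPA cells, against 20521 to 28250 in non-ZPA cells (0.98 ± 0.33, adjusted p = 0.149). Their quantile-normalized differences were -0.04 and 0.04. Rpsa, a small subunit protein also described as a laminin receptor, had a brighter and a dimmer probe set, and only the brighter is given here. It read 25414, 35786 and 119412 in ZPA cells, against 22893 to 28261 in non-ZPA cells, and its difference was 0.87 ± 0.43 (adjusted p = 0.324). ZPA array 1+2 lay among the non-ZPA arrays and ZPA array 4 far above them.

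The 5 lowest differences came from probe sets of Rps3, Rpl22, Rps27, Rps25 and Rps20, and none passed. Rps3, which helps unwind messenger RNA at the entry channel, was at -1.75 for a probe set with 30.2, 17.8 and 14.2 in ZPA cells, against 49.7 to 277 in non-ZPA cells. Its bright probe set was at 0.41, with 31049, 34396 and 62397 against 26695 to 34298, but at -0.67 with quantile normalization. Rps25 read 1297, 2123 and 2083 in ZPA cells, against 2451 to 5327 in non-ZPA cells, with no overlap (-0.82 ± 0.35, adjusted p = 0.242). Rps27 was at -1.20, with 161, 75.5 and 21.1 against 102 to 297, and Rps20 at -0.71, with 282, 281 and 233 against 380 to 594.

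Probe sets of a gene often differed in sign. Of 19 genes with several tested probe sets, 9 had all of them higher in ZPA cells, 0 had all lower and 10 had both signs. Rpl22, Rps10, Rps18, Rps24 and Rps3 had probe sets of opposite sign more than 2 apart on the log2 scale. Large and small subunit probe sets had medians of 0.90 and 1.01. Probe sets with no letter mark in their identifier, which the array maker designed for a single transcript, had a median of -0.16 over 23. They were also dimmer, with a median percentile of 76.3. The 6 of them above the 95th percentile had a median of 1.07, beside 1.17 for 31 with the x mark, whose probes can bind similar transcripts. Retained pseudogene copies are common in this family, and what such copies add to a probe set was not tested.

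**Figure D5:**
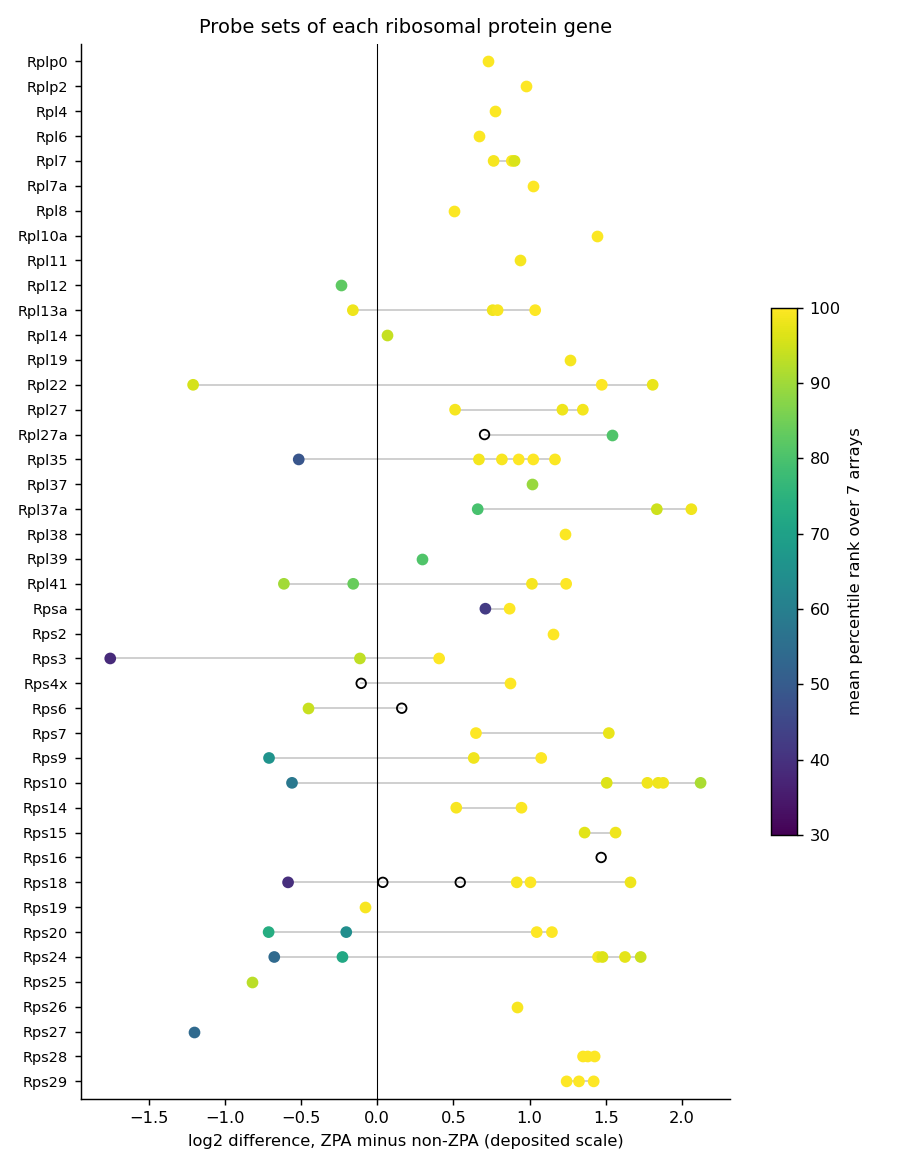
Log2 difference, ZPA minus non-ZPA, of every probe set of the 42 genes on the deposited scale, coloured by mean percentile rank; open circles were not tested. Bright probe sets lie mostly right of 0, and the probe sets left of 0 are mostly of lower rank.

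Genes that act beside the ribosomal proteins were read from the fit of 1 probe set per gene. None of 7 tested ribosomal protein genes outside the naming pattern passed by limma (median 0.83, and 0.63 with quantile normalization). Rps3a1 was at 0.83 and Rpl22l1, a paralog of Rpl22, at -0.27. Of 12 elongation and release factors and nascent chain binders 1 rose and 0 fell (median 0.47, and 0.18 with quantile normalization). It was Naca, which binds new chains as they leave the ribosome, with 21750, 25894 and 37816 in ZPA cells, against 8306 to 8691 in non-ZPA cells (1.71 ± 0.28, adjusted p = 0.00799, and 0.0203 with quantile normalization). Eef1a1, the factor that brings tRNA to the ribosome, was at 0.92 on the deposited scale and -0.28 with quantile normalization. Tpt1, next to it in brightness in this list, was at 1.18 and 0.21, and neither gene passed on either scale. Of 30 initiation factors 0 rose and 1 fell (median 0.27, and 0.08 with quantile normalization), where 0.396% of all genes rose and 1.92% fell. The brightest of them, Eif4h and Eif4g2, were at 0.83 and 1.17 and did not pass, and stood at -0.13 and 0.15 with quantile normalization. Eif2s3x, a subunit of the factor that carries the first tRNA, fell with 2424 ± 998 in ZPA cells, against 7439 ± 1097 in non-ZPA cells (-1.70 ± 0.34, adjusted p = 0.0247).

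Ribosome assembly genes had a median of 0.14 (0.17 with quantile normalization), with 2 of 44 higher and 0 lower. Gnl2, a nucleolar GTPase of large subunit assembly, rose by 1.97 ± 0.31 (adjusted p = 0.00624) with 3161 ± 818 in ZPA cells, against 780 ± 104 in non-ZPA cells. Npm1, the nucleolar chaperone nucleophosmin, rose by 1.18 (adjusted p = 0.0470), and stood at 0.44 with quantile normalization (adjusted p = 0.371). Of 74 mitochondrial ribosome genes 2 rose and 0 fell (median 0.40, and 0.47 with quantile normalization), Mrpl47 by 1.83 (adjusted p = 0.00799) and Mrpl43 by 1.49 (adjusted p = 0.0329). In this fit 0.396% of all genes rose and 1.92% fell.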

How the data were processed

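RNA from FACS-sorted cells (50 ng per sample, 2 cycles of amplification, per the labels' protocols) was hybridised to Mouse430_2 arrays. The authors deposited a linear signal intensity per probe set, and the submitters' processing notes name GCOS 1.3. How probes were summarised is not given in the sources used here. The trimmed mean of every column, without the 2% of values at each end, was 500. ZPA replicates 1 and 2 differed by at most 0.5 units and entered as their mean.

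Log2(intensity + 16) was fitted with limma 3.58.1 in R 4.3.3 (lmFit, eBayes with trend, 2-sided, Benjamini-Hochberg), with no further scaling. A fold on this scale understates the change of dim probe sets. Probe sets above the 40th percentile of their array on at least 3 of 7 arrays were tested. In the fit per gene the probe set of highest mean log2 value stood for the gene. In data simulated for this comparison over 29525 probe sets, the test recovered 1.4% of changes of log2 size 1, 33.2% of size 2, 66.6% of size 3 and 85.4% of size 4. Each of 10 draws changed 200 probe sets, with noise drawn independently per probe set and no shift shared across an array. These percentages are therefore not the recovery for a family that shifts together. The number of arrays limits the precision.

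The members and lists were chosen with earlier results of these data known. Values were printed for members past either fit, the 8 brightest, the 5 highest and 5 lowest differences, the stalk genes and the brighter Rpsa probe set. They were also printed for genes with probe sets of opposite sign over 2 apart, and in part as ranges or differences. From the other lists they were printed for called genes or the 2 brightest. Alternatives were other pseudocounts, filters and scalings, the scan day or replicate number as a block, each scan day alone, eBayes without trend, each array left out, and other choices of probe sets. Quantile normalization with an array left out and the classes of level were added after seeing the data. For genes with several annotated starts, the start with the longest pyrimidine run was used.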

Additional observations from a re-analysis of the deposited data

Results flagged for a closer look

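In 5 of 43 groups of 4 non-ZPA values examined, a single array lay far from the other 3, with a gap to its neighbour, as a share of the group's log2 range, above Dixon's 95% critical value; chance gives about 1 in 20. Non-ZPA array 1 was low for an Rps24 probe set that rose (gap 0.833 of the range, 6321 against 10852 to 12094) and for the Rpl22 probe set that read lower in ZPA cells (0.830, 3552 against 6879 to 7876). Non-ZPA array 4 was low for the brightest Rpl22 probe set (0.881, 19607 against 21887 to 22215) and high for an Rps10 probe set that rose (0.860, 9845 against 7448 to 7745). Non-ZPA array 2 was low for the brightest Rps29 probe set (0.897, 28370 against 32234 to 32711).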

How the results depend on the processing

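The count of 12 probe sets called was 7 with no filter, 51 on the first scan day alone (20.3% of all probe sets called), 2 on the second alone (1.34%), 0 with eBayes without trend (0.332%; limma, 53 higher and 2 lower at an unadjusted p under 0.05, where 7.39% and 8.95% of all were) and 1 of 23 among probe sets with no letter mark; leaving out 1 array gave 0 to 43. The first scan day holds 1 ZPA array against 2 non-ZPA arrays. Its fits assume that the lone ZPA array varies like the non-ZPA arrays and give no replicate check, so nothing is concluded from their counts. Of all genes, 0.396% rose and 1.92% fell in the main fit per gene, and 0.403% and 1.83% with quantile normalization. For the other settings the share of all genes called is not given. Their counts of genes, given next, therefore cannot be read as particular to this family. The count of 5 genes was 2 with quantile normalization, 9 with median centring, 2 with no filter, 8 with the filter at the 60th percentile, 24 and 3 on the first and second scan day alone, 1 without trend, 2 with the scan day as a block and quantile normalization, and 3 with the median over a gene's probe sets; leaving out 1 array gave 1 to 26. The median log2 difference of 0.93 was 0.14 with quantile normalization, 0.12 with the scan day as a block too, and -0.16 over the unmarked probe sets; leaving out 1 array gave 0.13 to 1.13, the lowest with quantile normalization. Rpl37a, at 2.06, stood at 1.88 on the second scan day alone (adjusted p = 0.0637) and at 2.06 without trend (adjusted p = 0.0744), and at 1.76 to 2.48 with 1 array left out, or as low as 1.40 with quantile normalization as well. The difference in share of signal, 2.35 percentage points, was 0.741 with quantile normalization, and that in median percentile, 0.890, was 0.156 over the unmarked probe sets. A mid-level Rps3 probe set, at -0.11, stood at 1.50 on the first scan day alone, from its single ZPA array. The cause of these changes was not tested. Deviations of same-numbered samples correlated at -0.0162 to 0.0787, and those of other ZPA and non-ZPA pairs at -0.1032 to 0.0704. With so few arrays these values cannot tell whether the replicate numbers pair the samples. With the replicate number as a block, the shared ZPA array was taken as replicate 1 or 2. Then 9 or 14 probe sets and 2 or 7 genes were called. Shares of all probe sets and genes called in those fits are not given, so the counts cannot be read as particular to this family. Rpl37a stood at 1.98 (limma adjusted p = 0.00850) or 2.10 (limma adjusted p = 0.000995).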
